A study of Mus musculus with 4 samples.

Results

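The lysosome is the acidic compartment in which cells break down proteins, glycans, lipids and worn-out organelles. Soluble hydrolases are tagged with mannose 6-phosphate and carried there by receptors, a proton-pumping ATPase keeps the lumen acidic, and heavily glycosylated membrane proteins shield the limiting membrane. Many of these genes share a promoter element bound by Tfeb and its relatives, and in blood stem cells lysosomal activity is studied as part of the control of quiescence and of mitochondrial turnover. The genes described here are 35 lysosomal hydrolases, cofactors, membrane proteins and pump subunits, out of 9244 genes with library values. They were taken from a list of 37 names chosen by function with earlier results of the genotype comparison known. Tpp1 (tripeptidyl peptidase 1, which removes tripeptides from protein ends) was selected on its measured difference between the genotypes. Values of that comparison are therefore given for these genes as a description. The list's other names, Gla (alpha-galactosidase A) and Tfeb, have no row with library values, so that only their promoters were examined here. The table starts at a mean value of 120.2, and the member nearest to that edge was Naglu, with values from 56.7 to 223.8.

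The libraries are polyA RNA of haematopoietic stem cells from C57BL/6 mice of 8 to 12 weeks, sorted as LSK CD34- FLk2- cells and amplified by the SMARTER method for small inputs. The groups are WT and Sin3B KO, with 2 libraries each (n = 2 throughout), and the study asks which genes Sin3B, a scaffold of deacetylase complexes, regulates in these cells. The labels do not say how the knockout was made, in which cells, or whether the libraries of a group come from separate animals. Errors thus rest only on the spread between libraries, which may be technical. An SE here is from limma, which moderates a gene's own spread toward that of genes at a similar level. Sin3b itself was at 1522 and 1825 in WT, against 755.4 and 646.5 in Sin3B KO, lower in both knockout libraries but not at 0.

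Depth in the listed genes, as implied by the steps of the values, ranged from 9950979 to 13700630 reads per library. All 13 stem cell markers searched for were present, among them Mecom (1967 to 2501) and Procr (2050.0 to 3392), and Cd34, whose protein the gate excludes, was read at 4945 to 6508. Neutrophil and monocyte markers, which the gate should leave out, had library values for 18 of 22 genes, with none at 0. Their summed value was 86605 in WT 1, 16590 in WT 2, 58645 in Sin3B KO 1 and 27028 in Sin3B KO 2. WT 1 and Sin3B KO 1 thus held more of these transcripts than the libraries numbered 2. Of 20 macrophage and dendritic markers 7 had values, with summed values of 7881 to 10182 in WT and 9356 to 10094 in Sin3B KO. Most of each sum was Cd74, at 4212 and 5885 in WT, against 6252 and 5706 in Sin3B KO. Single markers differed more between libraries, in opposite directions. Csf1r was at 436.7 and 25.7 in WT, against 198.0 and 97.2 in Sin3B KO. H2.Eb1 was at 189.3 and 387.7 in WT, against 31.7 and 489.6 in Sin3B KO. Erythroid markers had values for 10 of 12 genes and sums of 56778 to 58066 in WT and 62019 to 77322 in Sin3B KO. In such bulk libraries, fewer cells of a type and less RNA per cell cannot be told apart.

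The promoters of the genes were examined first, since promoter sequence was not used to choose the names. The names were chosen by function, however, and many lysosomal genes share a promoter element. The shares below are thus not independent of that choice. RefSeq windows of 300 bases (GRCm38.p6, 250 before and 50 after the start) were found for 33 of the 37 names, and not for Ctsb, Asah1, Npc1 and Atp6v1h. The letters CACGTG, the core bound by Tfeb, Myc and other basic helix-loop-helix factors, were searched for; the core reads the same on both strands. It was present in 13 of the 33 genes (39.4%), compared with 883 of 7079 genes of the table that have a window (12.5%) and 7.15% of all windows. The longer form TCACGTGA, which contains the core, was present in 7 of 33 genes (21.2%), 2.43% of the table's genes and 0.974% of all windows. These counts describe letters in a window, not binding.

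The longer form lay in Atp6v0d1, Atp6v1a, Cln3, Ctsa, Ctsd, Gla and Mcoln1, across the start in Atp6v0d1. The following 30-base stretches of the other genes are shown because they differ in sequence around a common core. Capitals mark the core.
Ctsa: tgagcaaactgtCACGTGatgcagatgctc
Mcoln1: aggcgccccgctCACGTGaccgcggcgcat
Ctsd: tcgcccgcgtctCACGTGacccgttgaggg
Cln3: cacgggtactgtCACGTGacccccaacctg
Atp6v1a: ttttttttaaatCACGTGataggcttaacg
Gla: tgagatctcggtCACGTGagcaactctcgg

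Their positions were chr2:164833749-164833778 (plus strand) for Ctsa, chr8:3500462-3500491 (plus) for Mcoln1, chr7:142387908-142387937 (minus) for Ctsd, chr7:126583340-126583369 (minus) for Cln3, chr16:44139373-44139402 (minus) for Atp6v1a and chrX:134601182-134601211 (minus) for Gla. The first base of the core lay 12 bases before the start in Ctsa, at -12, and at -45, -98, -121, -131 and -194 in the others, in that order. The 13 genes carried 1 core each in Atp6v0d1, Atp6v1a, Ctsl, Gaa, Glb1, Naglu and Sgsh, and 2 each in Cln3, Ctsa, Ctsd, Gla and Mcoln1. Lamp1, which encodes an abundant glycoprotein of the lysosomal membrane, had 4 cores within 70 bases at chr8:13159091-13159160 (plus strand), each in capitals here.
Lamp1: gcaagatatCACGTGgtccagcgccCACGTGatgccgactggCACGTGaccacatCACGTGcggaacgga

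The Tpp1 window held no core. Its 250 bases before the start (chr7:105752236-105752485, minus strand) are printed because Tpp1 had the largest genotype difference of the 35 genes.
Tpp1: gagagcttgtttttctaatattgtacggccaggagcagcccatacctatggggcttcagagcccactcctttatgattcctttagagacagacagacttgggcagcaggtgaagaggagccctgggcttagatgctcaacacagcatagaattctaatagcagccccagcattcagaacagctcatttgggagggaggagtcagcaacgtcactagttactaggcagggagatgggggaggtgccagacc

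Levels were compared between genes per kilobase of exon, from the GRCm38 annotation. In WT, the median of the 35 genes was 396.8 normalised read counts per kilobase, compared with 153.5 over all genes that have an exon length, and 27 of the 35 lay above the latter. Ctsd, the aspartic protease cathepsin D, stood first at 3493 ± 785 (SD) per kilobase in WT and 4496 ± 197 in Sin3B KO. It did not overlap the next gene in WT. Psap, the precursor of the saposin cofactors, followed at 1848 ± 1037 per kilobase in WT, then the cysteine carboxypeptidase Ctsz at 1610 ± 214 and the pump accessory subunit Atp6ap1 at 1515 ± 75.2. These 3 could not be ordered, since neighbours overlapped between WT libraries. Tpp1 was 14th in WT at 528.1 ± 2.13 per kilobase. In Sin3B KO its level was 1013 ± 127 per kilobase.

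The low end of the order depended on the length used. Per kilobase of all exons, the lowest levels in WT were those of Mcoln1, the lysosomal calcium channel, at 26.3 ± 7.17, Scarb2, a sorting receptor of the lysosomal membrane, at 39.6 ± 19.1, and Npc1, the membrane cholesterol transporter, at 61.1 ± 0.372. Mcoln1 and Scarb2 overlapped between libraries. Per kilobase of the longest transcript, Scarb2 was lowest at 53.0, followed by Naglu at 67.6 and Mcoln1 at 68.9, and Npc1 was at 120.1. Of 34 pairs of neighbours in the WT order, 27 overlapped between libraries. Reads were not stated to be counted by strand, and exons of some members overlap other genes in the annotation. The largest overlaps were 34.4% of the exons of Ctsd with Gm49369 on the same strand, 26.8% of Ctsl with the antisense gene Gm47123 and 21.6% of Sgsh with Card14 on the opposite strand. Values of these genes may include reads of their partners.

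**Figure D1:**
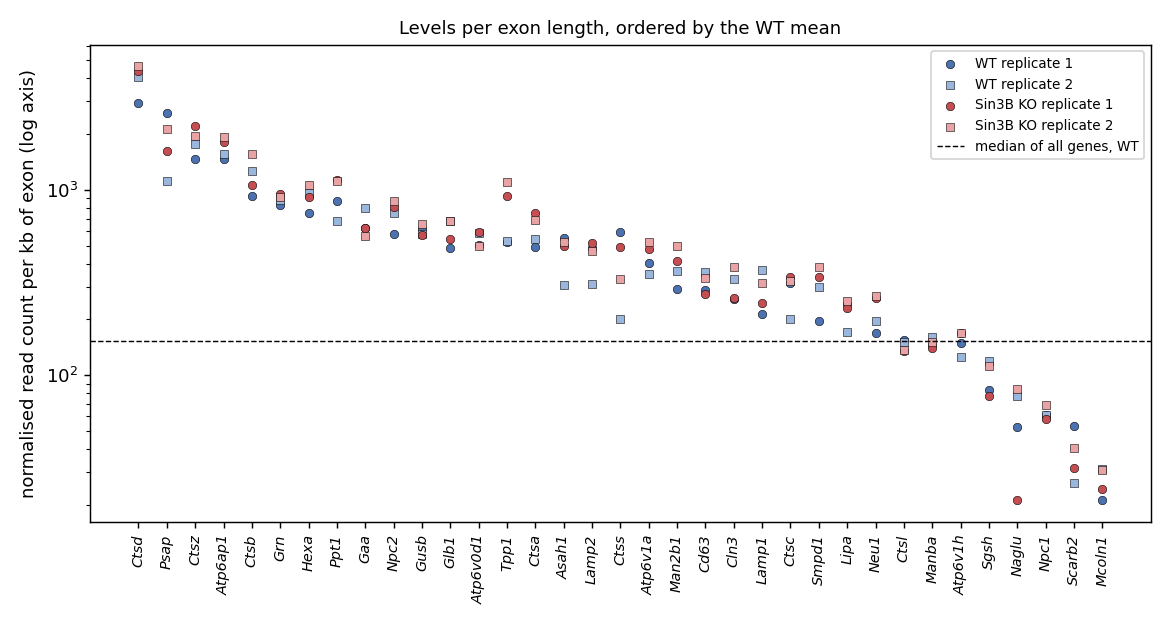
Normalised read counts per kilobase of exon (log axis) for the 35 lysosomal genes, ordered by the WT mean. Each symbol is 1 library and the dashed line is the WT median of all genes, 153.5; by this length Ctsd stands highest and Mcoln1 lowest.

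Between the genotypes, 26 of the 35 genes had a log2 difference above 0 (Sin3B KO minus WT, on log2(value + 1)) and 9 below (22 above 0 with upper quartile scaling), with a median of 0.22, beside a median of 0.03 over all 9244 genes. Both Sin3B KO libraries lay above both WT libraries for 14 members (40.0%), beside 24.7% of all genes. Both lay below for 1 member, Ctsl, beside 19.4% of all genes. In the limma fit of genotype alone, with no term for the replicate number, no member reached a Benjamini-Hochberg adjusted p under 0.05. Neither did any other of the 9244 genes (0%). At an unadjusted p under 0.05 there were 5 of the 35 members, all higher in the knockout, beside 459 higher and 365 lower of the 9244 genes. In the authors' deposited table Tpp1 was the 1 member with an adjusted p under 0.05, beside 0.325% of the genes with library values. The members were proposed with this contrast in view, so nothing is read from these counts. The summed share of the 35 genes in all listed signal was 0.663% and 0.660% (WT 1, WT 2), against 0.719% and 0.786% in the knockout libraries.

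**Figure D2:**
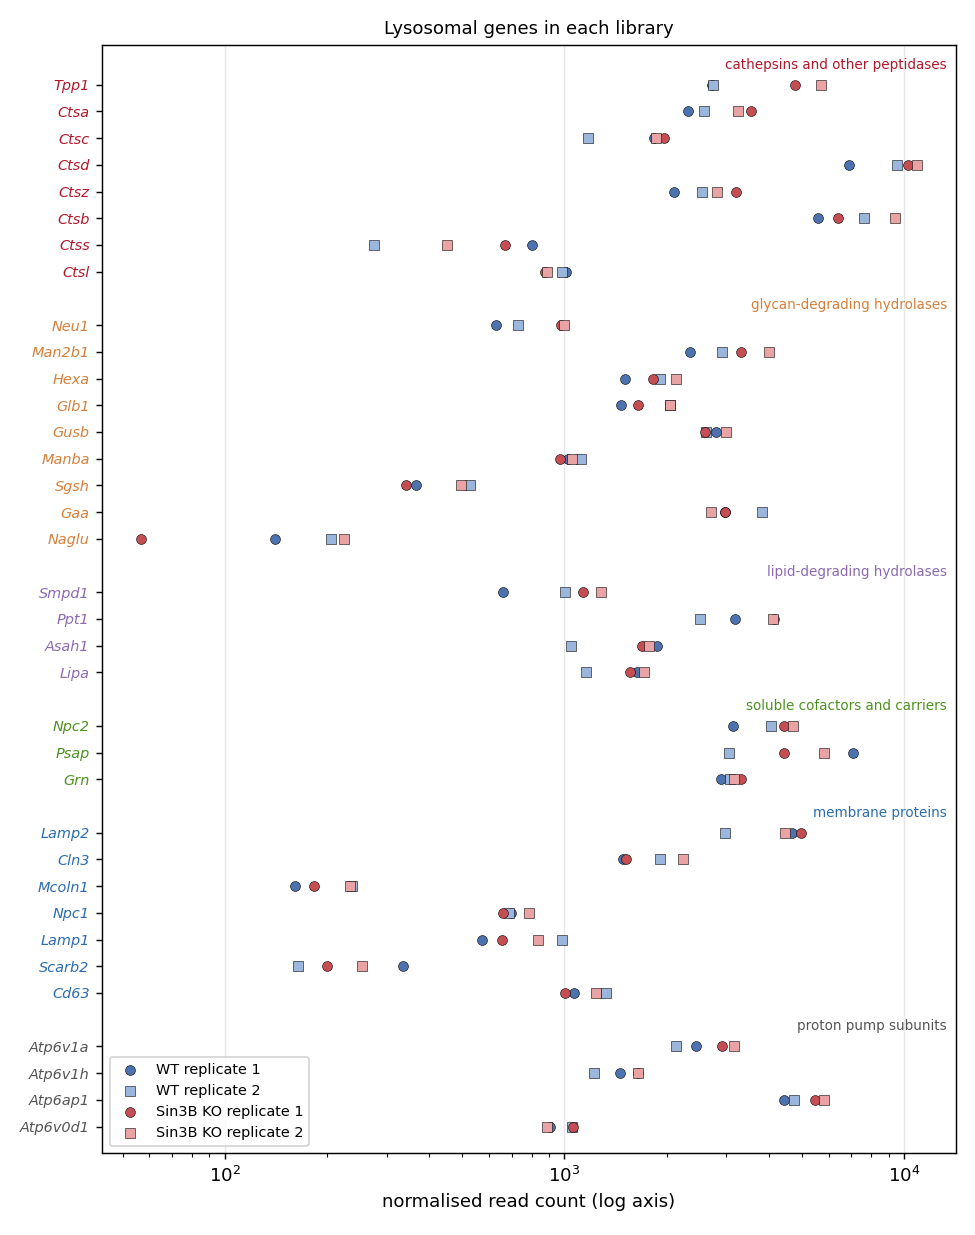
Normalised read count (log axis) of each lysosomal gene in the 4 libraries, grouped by role, with circles for replicate 1 and squares for replicate 2. The Tpp1 symbols of the knockout, 4767 and 5691, stand clear of the WT symbols at 2719 and 2735, while for Lamp1 and Cd63 the genotypes overlap.

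Among the peptidases, Tpp1 (ENSMUSG00000030894) was at 2719 and 2735 in WT, against 4767 and 5691 in Sin3B KO. The WT libraries agreed closely and both knockout values were well above them. The means were 2727 ± 11.0 (SD, n = 2) and 5229 ± 653 (SD, n = 2), a log2 difference of 0.93 (SE 0.19), or 1.91-fold. The authors' deposited table gives a log2 fold change of 0.82 with an SE of 0.18. Tpp1 contributed 3.62% and 3.57% of the members' summed signal in WT 1 and 2 and 5.46% and 5.93% in Sin3B KO 1 and 2. Its share was thus larger in both knockout libraries.

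Ctsa, cathepsin A, a carboxypeptidase that also protects the sialidase Neu1 and beta-galactosidase in a complex, was at 2309.9 and 2576 in WT, against 3549 and 3253 in Sin3B KO (log2 difference 0.48, SE 0.19). Its groups did not overlap. Ctsd was at 6907 and 9518 in WT, against 10242 and 10897 in Sin3B KO, a log2 difference of 0.38 (SE 0.21). The knockout values were again the higher pair, but the WT libraries differed from each other by more than the knockout libraries did. Ctsz (log2 difference 0.38) and Ctsc, dipeptidyl peptidase 1, which activates granule proteases of myeloid cells (0.38), also had groups that did not overlap.

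Ctsb, the abundant cysteine protease cathepsin B, was at 5584 and 7625 in WT, against 6390.5 and 9415 in Sin3B KO. These groups overlapped, with the larger value in the library numbered 2 of each genotype. Ctss, an antigen-processing cathepsin of myeloid and B cells, was at 802.7 and 275.0 in WT, against 668.0 and 451.2 in Sin3B KO, so that the spread within WT covered the knockout values. Ctsl, cathepsin L, was at 1010.2 and 981.2 in WT, against 877.5 and 890.0 in Sin3B KO. It was the sole peptidase with a difference below 0 (-0.17, SE 0.21), and that difference was smaller than its SE. Its own libraries differed by 0.04 in WT and -0.02 in Sin3B KO (log2, replicate 1 minus 2), so this SE reflects the moderation by other genes. Over the 8 peptidases the median log2 difference was 0.38, with 7 above 0.

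Glycan-degrading enzymes went both ways. Of the 9 with values, 5 were above 0 and 4 below, with a median of 0.04. Neu1, the lysosomal sialidase, was at 630.5 and 731.9 in WT, against 977.5 and 995.2 in Sin3B KO (log2 difference 0.54, SE 0.22). Man2b1, the alpha-mannosidase, was at 2349.8 and 2913 in WT, against 3319 and 3989.8 in Sin3B KO (0.48, SE 0.21). The groups of these enzymes did not overlap. Gaa, the acid alpha-glucosidase that digests lysosomal glycogen, was at 2971 and 3816 in WT, against 2973 and 2702 in Sin3B KO (log2 difference -0.25, SE 0.20), with WT 1 between the knockout libraries.

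Differences of the other glycan enzymes were about as large as their errors or smaller. Hexa, the alpha subunit of beta-hexosaminidase, had a log2 difference of 0.22 (SE 0.21), Glb1, beta-galactosidase, of 0.09 (SE 0.24) and Gusb, beta-glucuronidase, of 0.04 (SE 0.19). Manba, beta-mannosidase, had -0.08 (SE 0.21), and the heparan sulphate enzyme Sgsh -0.10 (SE 0.32). Naglu, which acts on the same glycan, had the lowest values before length was taken into account, at 140.2 and 205.7 in WT, against 56.7 and 223.8 in Sin3B KO. Its difference of -0.59 (SE 0.67) turned with 1 library, being 0.40 without Sin3B KO replicate 1. Directions flipped with the scaling for Gusb and Mcoln1, below 0 with equal library totals and with upper quartile scaling, for Npc1 with the same settings, and for Glb1 with upper quartile scaling; Gusb also flipped with trimmed mean factors.

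All 4 lipid-degrading hydrolases had differences above 0, with a median of 0.43. Ppt1, which removes palmitate from proteins, was at 3183 and 2507 in WT, against 4142 and 4099 in Sin3B KO (log2 difference 0.54, SE 0.20). Smpd1, acid sphingomyelinase, was at 659.0 and 1004.9 in WT, against 1132 and 1279 in Sin3B KO (0.56, SE 0.26). Both genes had knockout values above both WT values. Asah1, acid ceramidase, was at 1872 and 1044 in WT, against 1694 and 1768 in Sin3B KO. Its knockout libraries lay between the WT libraries, and without WT replicate 2 the difference turned to below 0. Lipa, the acid lipase, had a difference of 0.25 (SE 0.23).

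The soluble cofactors varied most in Psap. Psap was at 7083 and 3057 in WT, against 4442 and 5813 in Sin3B KO, a log2 difference of 0.13 (SE 0.35). Both knockout values lay within the WT range, and the direction turned when either library numbered 2 was left out. Npc2, which hands cholesterol to Npc1, was at 3135 and 4064 in WT, against 4422 and 4708 in Sin3B KO (0.35, SE 0.20), with no overlap. Grn, progranulin, was at 2893 and 3079 in WT, against 3309 and 3164 in Sin3B KO (0.12, SE 0.18). Its groups did not overlap either, by a narrow margin.

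None of the 7 membrane proteins had groups that stood apart. Over all genes the knockout stood above WT for 24.7% and below for 19.4%. The median log2 difference of the 7 was 0.06. Lamp2, a lysosome-associated membrane glycoprotein needed for fusion with autophagosomes, was at 4669 and 2971 in WT, against 4966 and 4465 in Sin3B KO (0.34, SE 0.24). WT 1 fell between the knockout libraries. Cln3, whose loss causes a lysosomal storage disease of neurons, was at 1491 and 1914 in WT, against 1518 and 2229 in Sin3B KO (0.12, SE 0.25). Lamp1 was at 572.4 and 984.1 in WT, against 656.4 and 838.3 in Sin3B KO (-0.02, SE 0.30), and Cd63, a tetraspanin of late endosomes, had a difference of -0.09 (SE 0.23). For Mcoln1, Npc1 and Scarb2 the sizes were 0.08, 0.06 and -0.06, each below its SE.

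Of the proton pump subunits, 3 of 4 had knockout values above both WT values, beside 24.7% of all genes. Atp6v1a, the catalytic subunit that hydrolyses ATP, was at 2444 and 2133 in WT, against 2908 and 3168 in Sin3B KO (0.41, SE 0.19). Atp6ap1 was at 4425 and 4747 in WT, against 5471 and 5825 in Sin3B KO (0.30, SE 0.18). Atp6v1h, a regulatory subunit, was at 1454 and 1222 in WT, against 1650.2 and 1648 in Sin3B KO (0.31, SE 0.20). Atp6v0d1, of the membrane sector, was at 906.4 and 1055 in WT, against 1062 and 888.2 in Sin3B KO, with a difference of -0.01 (SE 0.22).

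**Figure D3:**
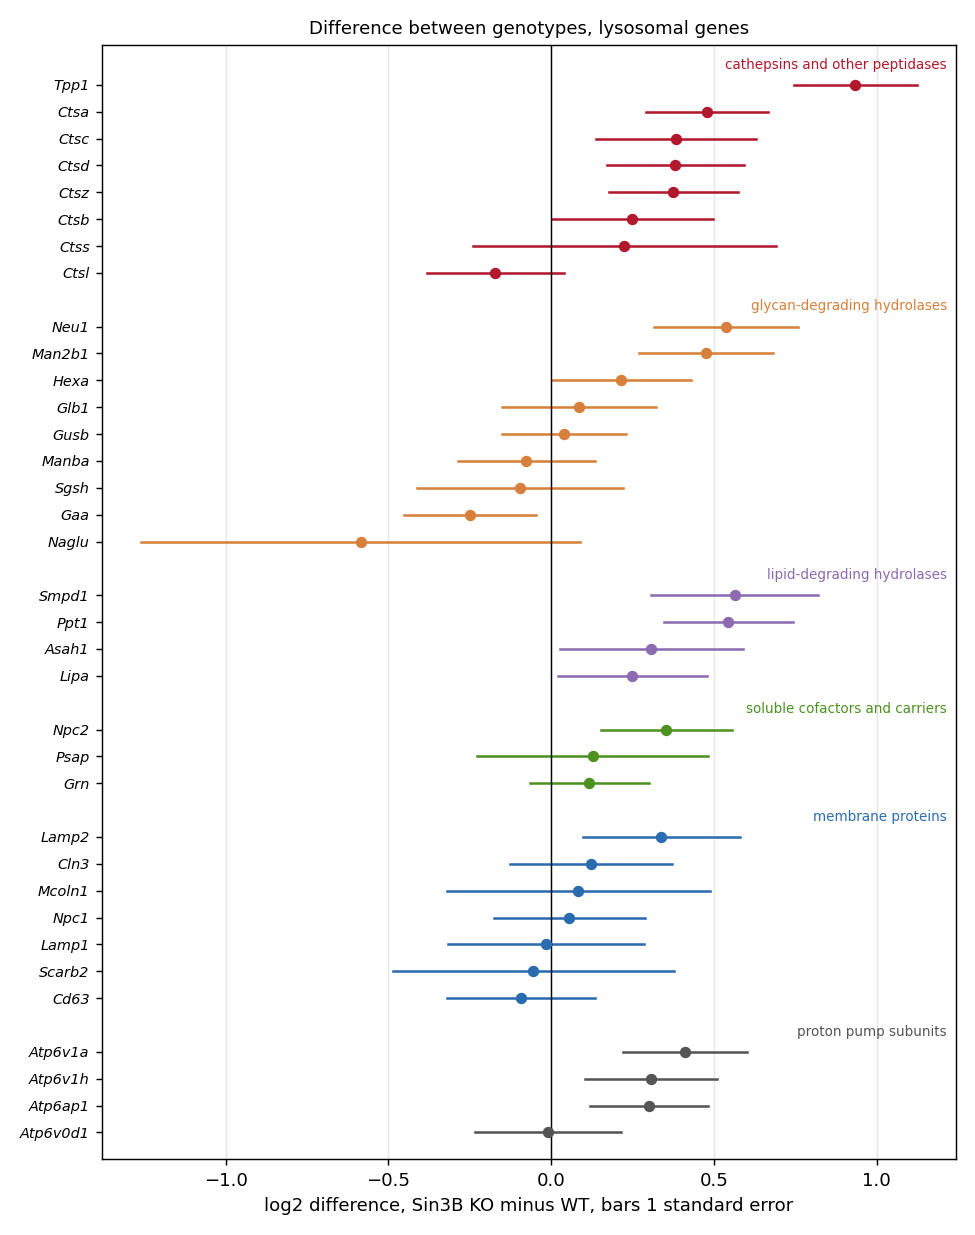
Log2 difference of each lysosomal gene, Sin3B KO minus WT, with bars of 1 standard error from the limma fit, by role. Tpp1 lies farthest to the right at 0.93 and Naglu farthest to the left at -0.59.

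Genes with and without the promoter core were set side by side. The 12 members with a core and library values had a median log2 difference of 0.04, from Naglu at -0.59 to Ctsa at 0.48, and 3 of them had knockout values above both WT values, beside 24.7% of all genes. The 19 members with a window and no core had a median of 0.30, from Cd63 at -0.09 to Tpp1 at 0.93, and 10 stood above. For the longer form the medians were 0.25 with it (6 genes) and 0.22 without (25 genes). The genotype values chose the members in part, so this is a description.

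The libraries also differed within each genotype, in a way that did not enter the choice of members. The titles number the libraries 1 and 2 in both groups, and what the number marks is not stated. With genotype in the fit, 195 of 9244 genes passed between the numbers (2.11%), and 0 of the 35 members did (limma, Benjamini-Hochberg adjusted p under 0.05). At an unadjusted p under 0.05 there were 2 members higher and 4 lower in replicate 1, beside 672 and 648 of all genes. Both replicate 1 libraries lay below both replicate 2 libraries for 10 members, beside 18.8% of all genes, and above for 2, Ctss and Lamp2, beside 17.1%. Within their own genotype, 17 members were lower in replicate 1 in both genotypes, 5 were higher in both and 13 went opposite ways. These classes were not counted over all genes, where the replicate differences in WT and in Sin3B KO were correlated (0.46). The median of the members was -0.11, beside -0.02 over all genes.

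Ctss had the largest positive difference between the numbered libraries, 1.05 on the log2 scale (SE 0.27), and was just short of the threshold (limma, Benjamini-Hochberg adjusted p = 0.0586). It was higher in replicate 1 in both genotypes, by 1.54 in WT and 0.56 in Sin3B KO. With 4 of the alternative settings it passed (limma, Benjamini-Hochberg adjusted p from 0.00892 to 0.0497). The neutrophil and monocyte markers moved the same way, with 13 of 18 passing as higher in replicate 1 and a median of 2.41. Their summed value in WT ranged from 16590 to 86605. B lineage markers (4 of 7), erythroid markers (5 of 10) and Flt3, which encodes the Flk2 protein of the gate, also passed as higher in replicate 1. The part of such cells in the Ctss values was not tested. The 7 macrophage and dendritic markers did not move together, with 3 above 0, 4 below and a median of -0.08. Of these, Csf1r passed as higher in replicate 1 (2.53 on the log2 scale) and H2.Eb1 as lower (-2.47), in limma.

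Other members differed between the numbered libraries in the opposite direction. Ctsb was lower in replicate 1 by 0.45 in WT and 0.56 in Sin3B KO, written as -0.45 and -0.56 (fitted -0.50, SE 0.17; limma, Benjamini-Hochberg adjusted p = 0.184). Lamp1 had -0.78 in WT and -0.35 in Sin3B KO, and Naglu had -0.55 and -1.96. All 9 glycan-degrading enzymes were below 0 in the fitted difference, with a median of -0.29, but 0 of them passed. Psap had 1.21 in WT and -0.39 in Sin3B KO, and Scarb2 1.02 and -0.34. The numbers thus did not order these genes the same way in both genotypes, and the difference between the genotypes was not tested. The median size of the difference between a genotype's libraries was 0.36 over members in WT and 0.19 in Sin3B KO, beside 0.32 and 0.24 over all genes.

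**Figure D4:**
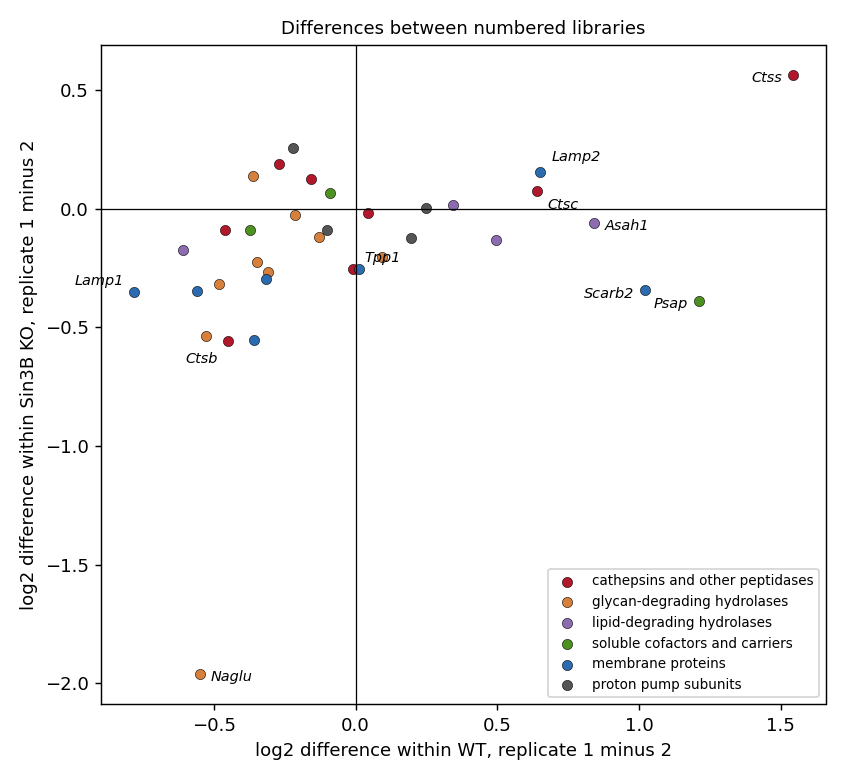
Log2 difference between replicates 1 and 2 within WT (horizontal) and within Sin3B KO (vertical) for each lysosomal gene, coloured by role. Ctss stands farthest to the upper right, Naglu is lowest, and Psap and Scarb2 lie to the right below the zero line.

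Further genes of the pathway were taken from lists written by function, with earlier results of these data known. Values of the genotype comparison are therefore a description for these lists too. In the genotype comparison 0 of their members passed in either direction (limma over all genes, genotype alone in the fit). Of the list of mannose 6-phosphate tagging and sorting genes, all 21 had values, with 13 above 0 and a median log2 difference of 0.22. M6pr, the small mannose 6-phosphate receptor that carries hydrolases to endosomes, was at 2259.8 and 3349 in WT, against 5393 and 4955 in Sin3B KO (0.91, SE 0.23). It had the largest difference of its list and no overlap. Vps35, the core of the retromer complex that returns such receptors to the Golgi, was at 3931 and 2743 in WT, against 5561 and 5024 in Sin3B KO (0.69, SE 0.22). Its partners Vps26a (0.64, SE 0.22) and Vps29 (0.47, SE 0.19), named after their values were seen, had knockout values above both WT values as well. Gnptab, the enzyme that starts the tag, was at 668.1 and 700.3 in WT, against 562.3 and 423.6 in Sin3B KO (-0.49, SE 0.26). The abundant adaptor gene Ap1m1 had 0.16 (SE 0.19).

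The other proton pump subunits had values for 13 of 19 genes, with 11 above 0 and a median of 0.26. For 7 of these 13 the knockout lay above WT and for 0 below, beside 24.7% and 19.4% of all genes. Atp6v1d, of the rotor stalk, was at 1601 and 1469 in WT, against 2172 and 2463 in Sin3B KO (0.59, SE 0.20). Atp6v0e and Atp6v1b2, the most abundant, had 0.26 (SE 0.19) and 0.29 (SE 0.20), and Atp6v1g2 had -0.24 (SE 0.36).

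Other lysosomal hydrolases had values for 33 of 45 genes, with a median of 0.10 and 19 above 0. Man2b2, an alpha-mannosidase, had -0.53 (SE 0.25). The most abundant were Gm2a, the ganglioside activator (0.08, SE 0.22), and Creg1 (0.28, SE 0.19). Between the numbered libraries Prcp, a carboxypeptidase, passed as lower in replicate 1, at 1041 and 1789 in WT, against 1220 and 2139 in Sin3B KO (limma, log2 difference -0.80, Benjamini-Hochberg adjusted p = 0.0445). Sort1, the sorting receptor sortilin, passed in the same direction, at 640.8 and 1286 in WT, against 585.3 and 1016 in Sin3B KO (limma, log2 difference -0.90, Benjamini-Hochberg adjusted p = 0.0391).

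Other membrane proteins were evenly divided, with 14 of 27 above 0 and a median of 0.04. Slc11a2, an endosomal iron transporter that erythroid cells also use, was at 565.5 and 618.2 in WT, against 1379 and 942.6 in Sin3B KO (0.95, SE 0.25). Beside it, all 10 erythroid markers with values were above 0, with a median of 0.64, and their part in the Slc11a2 values was not tested. The abundant Laptm5 was at 16017 and 19457 in WT, against 17457 and 20031 in Sin3B KO (0.08, SE 0.20), Laptm4a had 0.04 (SE 0.23) and Laptm4b -0.54 (SE 0.28).

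The factors that control lysosomal genes and mTORC1, the growth kinase complex that acts on the lysosome, had values for 22 of 23 genes, with 11 above 0, 11 below and a median of 0.00. Tfe3, a relative of Tfeb, was at 443.5 and 432.2 in WT, against 321.0 and 238.1 in Sin3B KO (-0.66, SE 0.30). Its groups did not overlap, whereas those of its relatives Mitf (-0.04, SE 0.46) and Tfec (0.19, SE 0.28), named after their values were seen, did. Mlst8, an mTORC1 subunit, was at 440.1 and 436.2 in WT, against 615.1 and 663.5 in Sin3B KO (0.54, SE 0.24). Flcn and Lamtor2, the most abundant, had -0.05 (SE 0.22) and 0.33 (SE 0.22).

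Autophagy genes had values for 25 of 28, with 14 above 0 and a median of 0.17. Ulk2 was at 619.1 and 665.6 in WT, against 397.9 and 406.6 in Sin3B KO (-0.67, SE 0.25), and its relative Ulk1, named after its values were seen, had -0.57 (SE 0.24). These kinases start autophagy, and for both the knockout lay below WT. Atg14, of the lipid kinase complex, had 0.41 (SE 0.22). Map1lc3b, which coats autophagosomes, was at 8458 and 12049 in WT, against 11038 and 13918 in Sin3B KO (0.30, SE 0.23), and Vmp1 had 0.32 (SE 0.22).

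**Figure D5:**
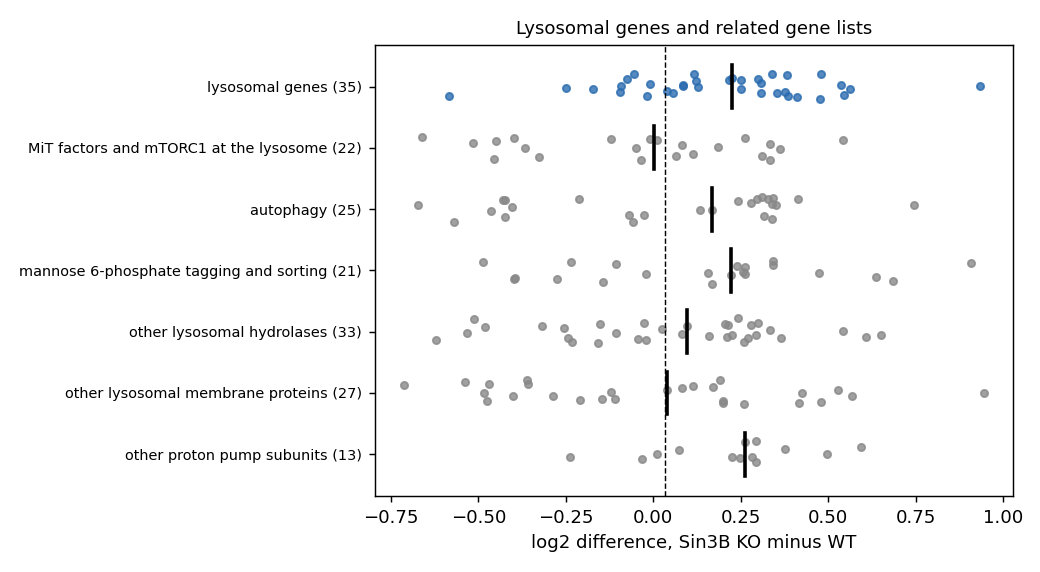
Log2 difference between genotypes of the 35 lysosomal genes (blue) and of the related lists (grey), 1 point per gene. Black bars are list medians and the dashed line is the median of all genes, 0.03; the lysosomal genes, the sorting genes and the pump subunits have the highest medians, 0.22, 0.22 and 0.26.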

How the data were processed

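Per the submitters' processing notes, Bowtie, DESeq and the mouse build mm9 were used; their versions, the way reads were counted and the gene models are unstated. The deposited table lists 9796 genes. Its library values are a signal that the authors made, normalised read counts per the file headers. Tested on the values, each was an integer times 1 step per library (tolerance 0.01 steps), and depths are the sums of these integers. Per the file headers, it also holds the authors' log2 fold change with its error, a test score and the p-value before and after adjustment. A further 552 genes (5.63%), among them a lower-case copy of the name Grn, have no library values and were left out.

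The deposited values were analysed on the log2(value + 1) scale with limma 3.58.1 in R 4.3.3 (trended prior) over the 9244 genes that reached 1 or more in 2 libraries or more, with Benjamini-Hochberg adjustment and a threshold of 0.05. The genotype fit had no further term; the fit of the replicate numbers in the titles had genotype as a covariate. No count test was run, since the values are normalised. The members and lists were chosen with earlier results of these data known. All members may be named; pathway genes were those that passed, the 2 most abundant and the smallest unadjusted p per direction of each list. Prcp and Sort1 passed, so that the other genes of their 2 lists, and those said to be named after their values were seen, go beyond the rule. The values of 1 further pathway gene are not reported here. Exon lengths come from GENCODE M21 (GRCm38), matched by Ensembl identifier for 9000 genes, promoter windows from RefSeq by symbol. Alternatives were 3 scalings, pseudocounts of 0.1 and 5, no filter, a mean of at least 500, a replicate block, no genotype term, each library left out, and other lengths and windows.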

Additional observations from a re-analysis of the deposited data

How the results depend on the processing

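In the genotype comparison, all 4-library settings without a block called 0 genes and 0 members. With the replicate number as a block (replicate block), 27 of 9244 genes passed and 1 member did, Tpp1 (limma, Benjamini-Hochberg adjusted p = 0.0421). Tpp1 was selected on its measured difference between the genotypes, so its pass and its direction here are a description. Same-numbered libraries deviated together across genes (correlation 0.46), but the labels do not say what the number marks. Leaving out a library called between 0 and 1 genes, and 0 members. The members' median of 0.22 was 0.139 with equal library totals and 0.111 with upper quartile scaling. The median of all genes was -0.05 and -0.08 with these scalings, beside 0.03 with the authors' scaling. With 1 library left out, the members' median ranged from 0.149 (without Sin3B KO replicate 2) to 0.316 (without Sin3B KO replicate 1). Of the 35 members, 20 kept their direction in every setting, Tpp1 among them, and 15 did not. The members with knockout values above WT numbered 14 with all libraries and 16 to 22 without 1 library, chosen after seeing the data, beside 36.1% to 41.2% of all genes in those settings.

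Between the numbered libraries, 195 genes passed, 334 with equal library totals and 85 without the genotype term; the cause was not tested. Of the members, 1, Ctss, passed with a pseudocount of 0.1, equal library totals, trimmed mean factors or a mean of at least 500. Without 1 library this comparison is a value of 1 genotype with no test. The median level per kilobase was 540.6 with the longest transcript as the length, and 12 genes held the promoter core before the start alone. The edgeR and DESeq2 alternatives were not run, since the values are normalised. Every listed value was a whole multiple of its library's step, low single values included, such as Ebf1 at 2.97 in WT 2. A count test on these integers was not tried. The table starts at a mean of 120.2, so genes with lower means could not be checked. With 2 libraries per genotype, the median 95% interval of a member's difference reached 0.51 to either side; it was wider or narrower for single members.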
